A study of Mus musculus with 7 samples.

Results

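The joins described here were read from the JH4 side, in the Igh locus, and their other side was placed outside that locus. A join was a member if its junction lay on a chromosome other than 12, or on chromosome 12 below position 114471123 or above 117838107. The rule took 489 of 264791 sequenced junctions, and the other 264302 lay inside the locus. The assay, HTGTS (high-throughput, genome-wide translocation sequencing), reads from the JH4 side, called the bait, across the junction. Whatever DNA was joined to the bait is called the prey. The position at which the bait ended varied, and only 27.5% of distinct joins outside, recurrent positions left out, ended within 10 bases of the most frequent one. The DNA came from pro-B cells (B220+, CD43high, IgM-) sorted from the marrow of 129SVE mice aged 4 to 6 weeks. The groups were WT (n = 3 libraries) and VH81X-CBEscr/scr (n = 4 libraries), a genotype whose name refers to the CTCF-binding element (CBE) of the VH81X segment. The labels do not say whether each library came from a separate mouse, so each p-value reflects library-to-library spread, which may be technical.

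V(D)J recombination assembles antigen receptor genes from V, D and J segments. The RAG endonuclease cuts beside recombination signal sequences, each made of a heptamer, a spacer of fixed length and a nonamer, and the cut leaves a coding end and a signal end. Pro-B cells rearrange Igh, first a D to a JH segment and then a V to the DJ join. The light chain loci Igk and Igl rearrange later in the B lineage, and the T cell receptor loci Tcra, Tcrd, Tcrb and Tcrg rearrange in T cell precursors. Bases absent from the genome can be added between ends by terminal transferase.

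The sequences below show the kinds of prey that make up the joins outside Igh, as read, from the junction outwards, 5′ to 3′. Positions are those of the files' reference, mm9. The first pair is shown because the same bases were read at chromosome 19 and inside Igh. Capitals in this pair mark bases that the deposited alignment records as mismatches to the reference at that place.

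chr19:61308325-61308414, plus strand: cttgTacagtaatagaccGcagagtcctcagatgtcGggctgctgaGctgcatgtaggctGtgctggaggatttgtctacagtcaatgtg
chr12:116773921-116774010 inside Igh, plus strand: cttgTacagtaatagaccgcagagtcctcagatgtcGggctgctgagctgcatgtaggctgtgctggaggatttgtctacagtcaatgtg

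The next set comes from the Tcra/Tcrd and Igk windows, which hold other antigen receptor segments. Capitals mark what remained of a heptamer at the prey start and a nonamer within 1 mismatch of ACAAAAACC, where the preys have them.

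chr14:54179864-54179923, minus strand: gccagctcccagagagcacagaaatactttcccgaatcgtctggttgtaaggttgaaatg
chr14:54179925-54179984, plus strand: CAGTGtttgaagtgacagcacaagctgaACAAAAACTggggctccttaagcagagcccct
chr14:54733144-54733203, plus strand: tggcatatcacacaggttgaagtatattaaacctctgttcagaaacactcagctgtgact
chr14:54741890-54741916, minus strand: ctcgtatccctccgatcacggtgctac
chr14:54742816-54742875, plus strand: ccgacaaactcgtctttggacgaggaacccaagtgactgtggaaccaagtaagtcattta
chr6:70673841-70673875, minus strand: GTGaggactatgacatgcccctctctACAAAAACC

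The last set shows preys of low sequence complexity, a prey that shared its first bases with the bait (capitals), and the prey on chromosome 12 that began with a heptamer (capitals). The first of these is the prey read at the recurrent position on chromosome 4, the second that on chromosome 1.

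chr4:64808501-64808528, plus strand: ccttcttctccttttccttcttttcctt
chr1:50655903-50655932, minus strand: cccttcttccctctcctcttcctccccctc
chr9:95527149-95527188, plus strand: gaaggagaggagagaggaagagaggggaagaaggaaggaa
chr14:66423434-66423472, plus strand: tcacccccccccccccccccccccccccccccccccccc
chr16:16782314-16782363, plus strand: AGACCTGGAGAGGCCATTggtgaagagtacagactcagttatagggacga
chr12:71554501-71554540, plus strand: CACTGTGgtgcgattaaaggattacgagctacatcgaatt

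Joins outside Igh were rare in every library. WT replicates 1 to 3 held 47, 50 and 50 such junctions, of 40613, 33782 and 46915 in all. VH81X-CBEscr/scr replicates 1 to 4 held 48, 38, 117 and 139, of 38229, 31986, 35057 and 38209. The shares were 0.116%, 0.148% and 0.107% in WT, against 0.126%, 0.119%, 0.334% and 0.364% in VH81X-CBEscr/scr. The 95% Wilson intervals of the first 5 of these libraries overlapped, the widest running from 0.112% to 0.195%. VH81X-CBEscr/scr replicates 3 and 4 stood above them, at 0.279% to 0.400% and 0.308% to 0.429%. These intervals cover counting error at most, and treat each line as a separate molecule. PCR copies of 1 molecule cannot be told from separate molecules without identifiers, so the intervals may be too narrow. Counted as distinct joins, defined below, the libraries held 32, 32 and 40 in WT, against 41, 35, 93 and 79 in VH81X-CBEscr/scr. Distinct joins inside numbered 17536, 7168 and 17277 in WT, against 11581, 10962, 13409 and 13112 in VH81X-CBEscr/scr. WT replicates 1 and 2 thus had equal numbers outside but unequal numbers inside, so the likeness of the first 5 shares depends on counting lines. The read names place the 7 libraries in 4 sequencing runs, of which 0 held both genotypes, so that run and genotype cannot be told apart. Replicates 3 and 4 of VH81X-CBEscr/scr shared 1 run.

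Lines that agreed in library, chromosome, position, strand, bait end and gap were counted as 1 distinct join. The 489 lines held 352 distinct joins at 296 positions, and 247 positions had 1 line. They were sorted, after their sequences had been seen, into 6 classes. No class was tested against another, and the comparisons between genotypes and between inside and outside were also computed with the low-complexity class left out. A prey was called low in complexity if at least 90% of its bases, or of its first 20, were of only 2 kinds. This class was the most numerous, with 218 lines and 211 distinct joins. The 2 recurrent positions gave 82 lines and 14 distinct joins. Preys that shared at least 10 bases with the bait gave 77 lines and 60 distinct joins. Preys that aligned from their start to preys of the V part of Igh gave 42 lines and 29 distinct joins. The antigen receptor windows gave 31 further lines and 14 distinct joins, and 39 lines with 24 distinct joins were left.

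**Figure D1:**
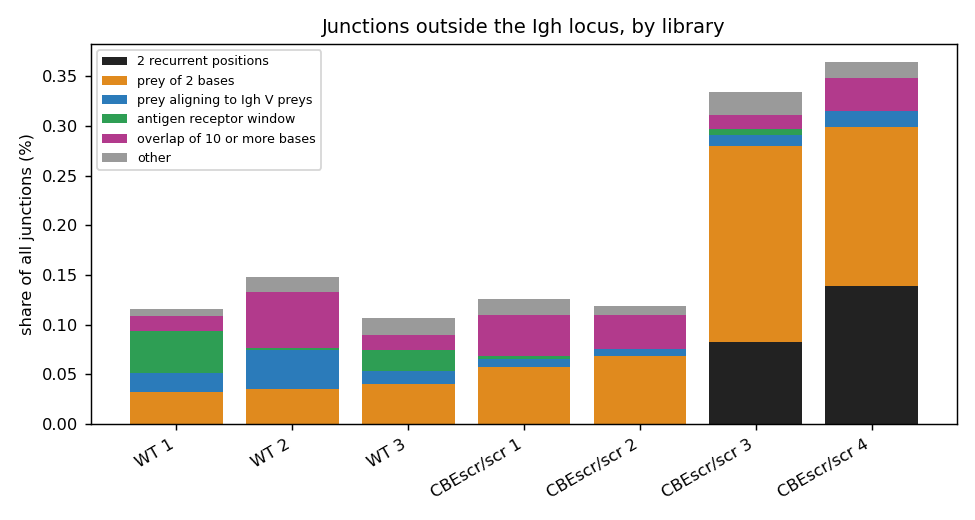
Share of all junctions of a library, in percent, that lay outside Igh, for 3 WT and 4 VH81X-CBEscr/scr (CBEscr/scr) libraries, with 1 bar per library divided by class of join. VH81X-CBEscr/scr replicates 3 and 4 reached 0.334% and 0.364%, and the other 5 libraries lay between 0.107% and 0.148%.

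Other antigen receptor loci were joined to JH4 in 5 of the 7 libraries, and nearly all of these joins lay in the Tcra/Tcrd window (chromosome 14, 52 to 55 Mb). This window held 30 lines and 13 distinct joins, with 17, 1 and 10 lines in WT, against 0, 0, 2 and 0 in VH81X-CBEscr/scr. All 3 WT libraries and VH81X-CBEscr/scr replicate 3 therefore had such a join. The shares of all junctions were 0.0419%, 0.00296% and 0.0213% in WT, and 0.00570% in the one VH81X-CBEscr/scr library that had any. A count of 0 allowed a share of up to 0.00785% to 0.00938% (3 counts) in the other 3 VH81X-CBEscr/scr libraries. The WT replicate 2 value lay below that bound, so the genotypes were not separated at this depth. Distinct joins of the antigen receptor class numbered 5, 1 and 5 in WT, against 1, 0, 2 and 0 in VH81X-CBEscr/scr. The 1 in VH81X-CBEscr/scr replicate 1 lay in Igk.

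The 13 distinct joins fell at only 4 places over 563 kb. A place at chr14:54179916-54179935 had 23 lines, with preys on both strands. The minus strand preys began at 54179916 to 54179923 and gave 13 lines, 10 in WT replicate 1, 2 in WT replicate 3 and 1 in VH81X-CBEscr/scr replicate 3. The plus strand preys began at 54179925 to 54179935 and gave 10 lines, 4 in WT replicate 1 and 6 in WT replicate 3. The 2 strands thus ran away from each other from starts that lay within 20 bp. The remaining places were chr14:54733144-54733161 with 2 lines, chr14:54741916-54741917 with 3 lines and chr14:54742815-54742816 with 2 lines. They came from WT replicate 2 and VH81X-CBEscr/scr replicate 3, from WT replicate 1, and from WT replicate 3, in that order.

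The distances between the 4 places, 553 kb, 8.77 kb and 0.899 kb, were compared with the spacing of the 209 receptor segments that a table of another assembly (GRCm38.p6) lists on chromosome 14. This match was made after the positions had been seen. With the second place set on either edge of each segment in turn, 418 settings in all, 2 settings put all 4 places within 30 bp of a segment, and both gave the same names. These were Trav15-1-dv6-1, a V segment used with Tcra or Tcrd, Trdd1 and Trdd2, which are Tcrd D segments, and Trdj1, a Tcrd J segment. From the start of Trdd1 the 4 deviations were 0, 0, 0 and 1 bp, and the next nearest segment to the V place was 5682 bp further. The deviation of the second place was 0 by construction. An edge anywhere within a place counted as 0, and the V place was 20 bp wide. Tcra/Tcrd V segments exist in near-identical copies, so the V name rests on where the aligner placed the reads.

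The plus strand preys at the V place held the 3 joins whose nonamer lay at 1 shared position, 54179953. The prey at 54179925 kept 5 bases of a CACAGTG heptamer, CAGTG, followed by 23 bases and the nonamer ACAAAAACT. The prey at 54179930 began with the 23 bases themselves, and that at 54179935 began within them. At the V place, 4 of the minus strand joins and 2 of the plus strand joins had inserts of 8 bases or more between bait and prey. All 6 of those inserts held an 8-base run of an Igh D segment, as defined by 172 runs that each occurred in at least 1% of preys in the D part of Igh. The inserts were read as follows, with the D-derived bases in capitals.

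54179916, minus strand, WT replicate 1: atcAGTTACCATAtaccaacccga
54179920, minus strand, WT replicate 1: cccGTAGTTACCATAGa
54179923, minus strand, WT replicate 3: aaaaaaataagGTAGTAACCATCATAGA
54179923, minus strand, VH81X-CBEscr/scr replicate 3: ccccCCGTAGTACCTATAGTAGG
54179930, plus strand, WT replicate 1: gaggAGTTACCATACccc
54179935, plus strand, WT replicate 3: aacTCCCAGTTgtag

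These inserts were 15 to 28 bases long. At the 3 places matched to D and J segments, the inserts were only 1 to 6 bases long. The bait ended within 10 bases of its most frequent position in all 14 distinct joins of the antigen receptor class, as in joins inside Igh, where 94.1% did so. The prey read through to the ligated linker in 13 of the 14 (92.9%), against 94.2% of distinct joins inside Igh.

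Igk, on chromosome 6, had 2 lines between 67 and 71 Mb. The prey at 70673875, minus strand, from VH81X-CBEscr/scr replicate 1, kept 3 bases of a heptamer, GTG, then 23 bases and a nonamer without a mismatch to ACAAAAACC. Its insert was 22 bases long and its bait ended 3 bases before the most frequent end. The line at 70786645, from VH81X-CBEscr/scr replicate 3, was a prey of low complexity and its bait ended 60 bases before it. Igl (chromosome 16), Tcrb (chromosome 6) and Tcrg (chromosome 13) had 0 lines in all 7 libraries, which allows a share of up to 0.00639% to 0.00938% per library. Among windows around genes known to rearrange in lymphoid cells, those of Myc and Notch1 had 1 line each, and those of Ikzf1 and Pax5 had 0. Myc encodes a transcription factor and Notch1 a receptor, both altered in lymphoid tumours. The Myc line, from VH81X-CBEscr/scr replicate 4, had its bait end 331 bases past the most frequent end, and the Notch1 line, from replicate 3, was a prey of low complexity.

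One position outside Igh was found in all 7 libraries. It lay at chr19:61308323-61308333 on the plus strand, with 7, 13 and 6 lines in WT, against 3, 2, 4 and 5 in VH81X-CBEscr/scr. The shares of all junctions were 0.0172%, 0.0385% and 0.0128% in WT, against 0.00785%, 0.00625%, 0.0114% and 0.0131% in VH81X-CBEscr/scr. The ranges of these shares overlapped only in that WT replicate 3 lay below VH81X-CBEscr/scr replicate 4. Counted as distinct joins, the libraries held 5, 3 and 6 in WT, against 3, 1, 4 and 5 in VH81X-CBEscr/scr, and these ranges overlapped more. The 40 lines held 27 distinct joins, of which 22 began at 61308325. Their bait ended 10 bases before to 4 bases past the most frequent end, and all 27 had an insert, of 8 to 30 bases.

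The preys at this position aligned from their first bases to preys read inside the V part of Igh, with a median identity of 100% over a median of 106 bases. In 15 of the 27 the aligned part was identical, and the lowest identity was 81.1%. The aligned part was 26 to 115 bases long, in preys of 26 to 498 bases. Some identical parts were therefore short, and in the longest preys only the first part aligned. The best matches lay at 14 positions between 116184041 and 117135977 of chromosome 12. In the pair of sequences printed first, the 90 bases differed at 0 places, although 1 was placed on chromosome 19 with 5 mismatches to the reference and the other inside Igh with 2. A second such position, chr8:51032483-51032484, had 2 lines, in WT replicate 1 and VH81X-CBEscr/scr replicate 4, with a median identity of 95.8%. Over both positions, 23 of 29 inserts (79.3%) held an 8-base run of an Igh D segment. Inside the V part of Igh the share was 73.1% of 42781 inserts of at least 8 bases, and in low-complexity preys it was 10.1% of 129.

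Chromosome 12 itself gave few joins outside the locus. It had 15 lines at 11 positions, all 15 below the locus and 0 above it. The span below reaches up to position 114471123, and neither count was scaled to the length of chromosome on its side. By library, the lines numbered 0, 0 and 1 in WT, against 0, 1, 5 and 8 in VH81X-CBEscr/scr. By distance from the lower edge, 1 line lay within 1 Mb, 4 lines between 1 and 10 Mb, and 10 lines further away, up to 109 Mb. The nearest, at 114461087 in WT replicate 3, lay 10 kb outside the edge. The joins just inside the limits lay 0.871 kb from the lower edge, at 114471994 in WT replicate 1, and 6.72 kb from the upper edge, at 117831390 in WT replicate 2. Low-complexity preys made up 7 of the 15 lines and long overlaps 4. The other 4 lines were at 71554501 (1 line), 100159141 (2 lines), both in VH81X-CBEscr/scr replicate 3, and 114461087 (1 line).

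The prey at 71554501 began with the heptamer CACTGTG, and its bait ended 1 base before the most frequent end, with an insert of 8 bases. A heptamer, CACAGTG or its reverse complement CACTGTG, lay in the first 8 bases of 1 of 338 distinct joins outside Igh (0.296%) and of 0.293% of 91045 inside. In the first 40 bases it was found in 2 of 338 (0.592%) and in 4.13% inside, 8.34% in the D part and 0.167% in the V part. The motif TCTNGCACA, read on either strand and typical of the 3′ ends of VH segments, was found in 3 of 338 (0.888%) and in 25% of joins inside, 48.8% in the V part and 0% in the D part. The nonamer ACAAAAACC, with up to 1 mismatch and read in the direction of the prey only, was found in 2.07% of joins outside and in 12.9% of all joins inside. It was found in 4 of 14 joins in antigen receptor windows (28.6%). Inside Igh it was found in 27.6% of joins in the D part and in 0% of those in the V part. TCTNGCACA and CACAGTG can share the bases CACA.

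Joins were found on all 20 chromosomes considered, 1 to 19 and X, and on Y in 0 lines. Without the 2 recurrent positions, chromosomes 6 and 19 had the most distinct joins, 31 each, followed by chromosome 5 with 26 and chromosome 14 with 23. On chromosome 19, 27 of the 31 belonged to the position shared by all libraries, and on chromosome 14, 13 of the 23 lay in the Tcra/Tcrd window. On chromosome 6, 25 of the 31 were preys of low complexity. Without low-complexity preys, chromosome 19 kept 29 distinct joins, chromosome 14 kept 14, and each other chromosome kept 1 to 9.

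**Figure D2:**
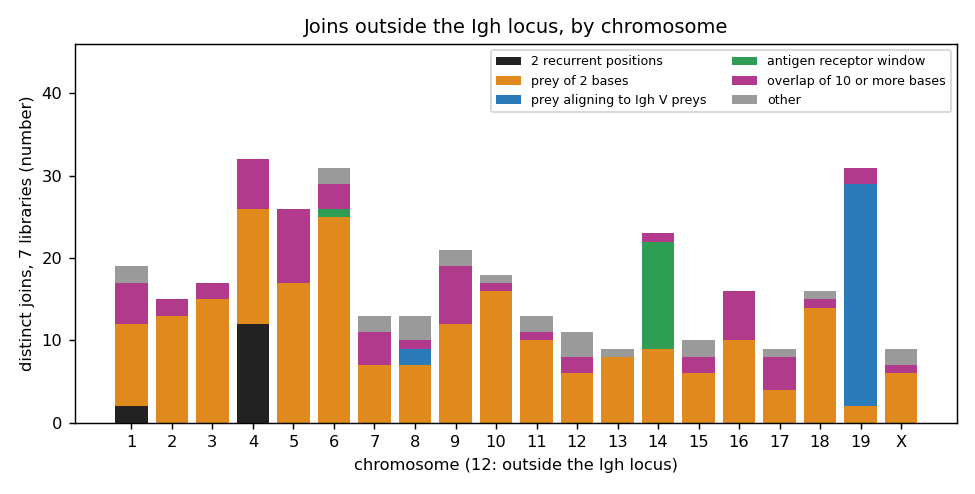
Number of distinct joins outside Igh on each chromosome, summed over 7 libraries, with each bar divided by class of join. Preys that aligned to the V part of Igh made up 27 joins on chromosome 19, joins in the Tcra/Tcrd window made up 13 on chromosome 14, and low-complexity preys were found on all 20 chromosomes.

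Preys of low complexity made up most distinct joins outside Igh and almost none inside it. Recurrent positions included, they were 225 of 352 distinct joins outside (63.9%) and 21 of 91045 inside (0.0231%). By library they made up 37.5%, 37.5% and 47.5% of distinct joins outside in WT, against 53.7%, 62.9%, 81.7% and 78.5% in VH81X-CBEscr/scr. The 4 VH81X-CBEscr/scr values all lay above the WT values, the closest being 22 of 41 in VH81X-CBEscr/scr replicate 1 and 19 of 40 in WT replicate 3. This was not tested, the class was set after the sequences had been seen, and no run held both genotypes. Recurrent positions left out, the low-complexity preys were short, with a median of 39 bases against 162 inside. The prey read through to the linker in 12 of 211 (5.69%).

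Several kinds of sequence made up this class. Preys with over 80% C numbered 89, with 9, 8 and 15 in WT, against 13, 16, 19 and 9 in VH81X-CBEscr/scr. Preys of A and G numbered 68, of which 29 came from each of VH81X-CBEscr/scr replicates 3 and 4 and 1 to 5 from each of the other libraries. Preys of C and T numbered 42, with 21 and 17 in those 2 libraries and 0 to 2 in each of the others. Preys of G and T numbered 11, with 2, 1 and 3 in WT and 5 in VH81X-CBEscr/scr replicate 1, and 1 prey was of another kind. The A and G preys had a bait end over 10 bases before the most frequent end in 62 of 68, and the C and T preys in 33 of 42. Of the C-rich preys, 27 ended before it, 15 near it and 47 past it.

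The 2 recurrent positions belonged to the same kind of sequence. Position 64808501 of chromosome 4, plus strand, had 27 and 43 lines in VH81X-CBEscr/scr replicates 3 and 4 and 0 in the other 5 libraries. Of its 70 lines, 63 had 1 identical prey, and they held 12 distinct joins with 9 bait ends between 81 and 52 bases before the most frequent end. The neighbouring base 64808500 had 5 further lines, all in VH81X-CBEscr/scr replicate 4. Position 50655932 of chromosome 1, minus strand, had 2 and 10 lines in the same 2 libraries and 0 elsewhere. All 12 had the same 30-base prey, a bait end 48 bases before the most frequent end and a gap of 29 bases, as 1 distinct join in each library. The linker was reached in 0 of the 14 distinct joins at both positions.

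Joins whose prey shared at least 10 bases with the bait numbered 60, 17.8% of distinct joins outside Igh without the recurrent positions, against 0.0956% (87 of 91045) inside. They were found in all 7 libraries and on 19 chromosomes. The overlap was 10 to 22 bases with a median of 14.5. The bait end was near its most frequent position in 1 of the 60. It lay over 10 bases before it in 28, of which 17 lay 45 to 60 bases before, and over 10 bases past it in 31, of which 25 lay 150 bases or more past. These preys were long, with a median of 134.5 bases, and 91.7% reached the linker. The position chr16:16782314, found in WT replicate 2 and VH81X-CBEscr/scr replicate 4 with the same bait end and an 18-base overlap, was the only one of this class in 2 libraries.

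**Figure D3:**
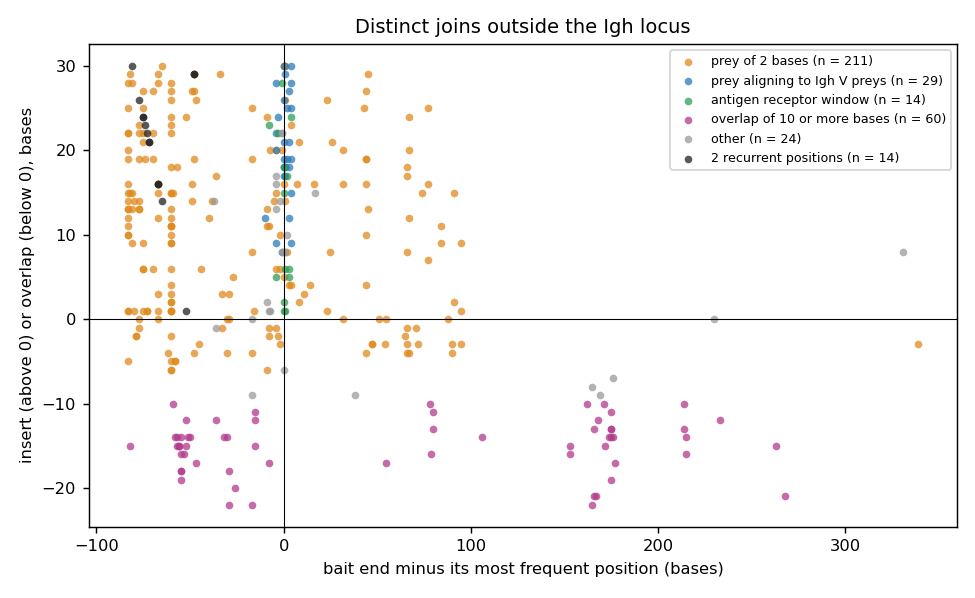
Bait end relative to its most frequent position (bases, horizontal axis) against the insert (above 0) or overlap (below 0) between bait and prey (bases, vertical axis) for each distinct join outside Igh in 7 libraries, coloured by class. Joins in antigen receptor windows and preys aligning to the V part lie within 10 bases of 0 on the horizontal axis, whereas the 60 long overlaps, which the class limit of 10 bases places low, lie mostly to either side.

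In all, 27 positions besides the 2 recurrent ones had at least 5 lines in 1 library or were found in at least 2 libraries within 1 kb on 1 strand. They comprised 2 positions with preys aligning to the V part, 3 in the Tcra/Tcrd window, 1 with a long overlap, 19 with low-complexity preys and 2 others. The 2 others were each in 1 library, chr18:38409472 with 6 lines in WT replicate 3 and chr1:87630600 with 5 lines in WT replicate 2, and each was 1 distinct join. Of the low-complexity positions, chr4:64808500 had 5 lines and chr6:123909294 had 4, with 1 and 3 in VH81X-CBEscr/scr replicates 3 and 4. In addition, 7 had 3 lines each, chr13:96231337, chr16:93686953, chr3:99809698, chr5:104501338, chr5:137458651, chr6:90769275 and chr6:91777068. A further 10 had 2 lines each, chr10:122303766, chr11:22873177, chr13:45494033, chr14:46432486, chr14:66423432, chr2:89228457, chr4:88863088, chr5:114396951, chr6:128779087 and chrX:54660775. Of those with 3 lines, 4 positions were found in 3 libraries and 3 in 2 libraries, and those with 2 lines were each found in 2 libraries. Separately, 6 sets of lines, 15 lines in all, had the same library, bait end and 45 bases after the bait but had been placed on different chromosomes.

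The structure of joins outside Igh was compared with that of joins inside it in the same library, over distinct joins and without the recurrent positions. Inserts are bases between bait and prey that align to neither, and overlaps are bases that align to both. An insert was present in 59.4%, 43.8% and 72.5% of joins outside in WT, against 63.4%, 45.7%, 74.4% and 77.8% in VH81X-CBEscr/scr. Inside, the 7 values were 94.2% to 95.5%, so that all 7 libraries were lower outside, with a difference of -32.5 ± 13.4 percentage points (SD, n = 7). A two-sided exact sign-flip permutation test over libraries gave p = 0.0156, the smallest it can give with 7 libraries, and an adjusted p of 0.0195 (Benjamini-Hochberg over 5 comparisons).

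An overlap was present in 34.6% ± 13.2 (SD, n = 7) of joins outside and in 2.26% ± 0.252 inside, higher outside in 7 of 7 libraries (exact permutation adjusted p = 0.0195). WT replicate 2 had the highest share, 53.1%, and VH81X-CBEscr/scr replicate 4 the lowest, 18.1%. Without low-complexity preys, the mean difference was larger for both measures, -51 percentage points for inserts and 52.2 for overlaps (exact permutation adjusted p = 0.026 for each). Over all libraries, 45.7% of the 127 distinct joins left had an insert and 52.8% an overlap. Of the 67 with an overlap, 60 belonged to the class defined by an overlap of at least 10 bases. By contrast, all 29 joins aligning to the V part and all 14 of the antigen receptor class had an insert and 0 had an overlap. The difference was thus not shared by all classes. Where there was an insert, its mean length was 14.7 ± 1.65 bases outside and 11.8 ± 0.528 inside (SD, n = 7), longer outside in 7 of 7 libraries by 0.849 to 4.35 bases (exact permutation adjusted p = 0.0195). Without low-complexity preys, the difference was 3.22 bases with an adjusted p of 0.0938 by the same exact permutation test. Inside, insert lengths peaked at 3 bases (6.27% of joins), fell to 2.87% at 11 and rose to 3.48% at 19. The mean inside thus depends on the mix of short and long inserts. The longest insert was 30 bases in both sets, found in 2.07% of joins outside and 0.585% inside. Lines that repeated an earlier junction made up 18.4% ± 12.1 outside and 65.9% ± 6.94 inside (SD, n = 7), lower outside in 7 of 7 libraries (exact permutation adjusted p = 0.0195). A repeat was a match in position, strand, bait end and gap, which is likelier among the many lines inside than the few outside. This test therefore did not compare like with like. With the recurrent positions kept, the difference in repeats was -41 percentage points instead of -47.5.

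The most frequent bait end, position 114671123, was used by 5.69% ± 7.63 of joins outside and 14.6% ± 0.453 inside (SD, n = 7). The share was lower outside in 6 of 7 libraries, at 0% to 6.25%, and higher in WT replicate 3, at 22.5% against 13.9%. The exact sign-flip permutation test gave an adjusted p of 0.0469. This call ended when any library other than WT replicate 3 was left out (exact permutation adjusted p = 0.0625 or 0.0938) and when low-complexity preys were left out (0.0938). The tested end was the most frequent over all 264791 lines, of which 264302 lay inside Igh. It was thus picked largely on the joins inside, which favours a lower share outside. Counted within 10 bases of the most frequent end, the bait ended there in 43.8%, 25% and 55.0% of joins outside in WT, in 41.5%, 14.3%, 17.4% and 16.7% in VH81X-CBEscr/scr, and in 94.1% of all joins inside.

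**Figure D4:**
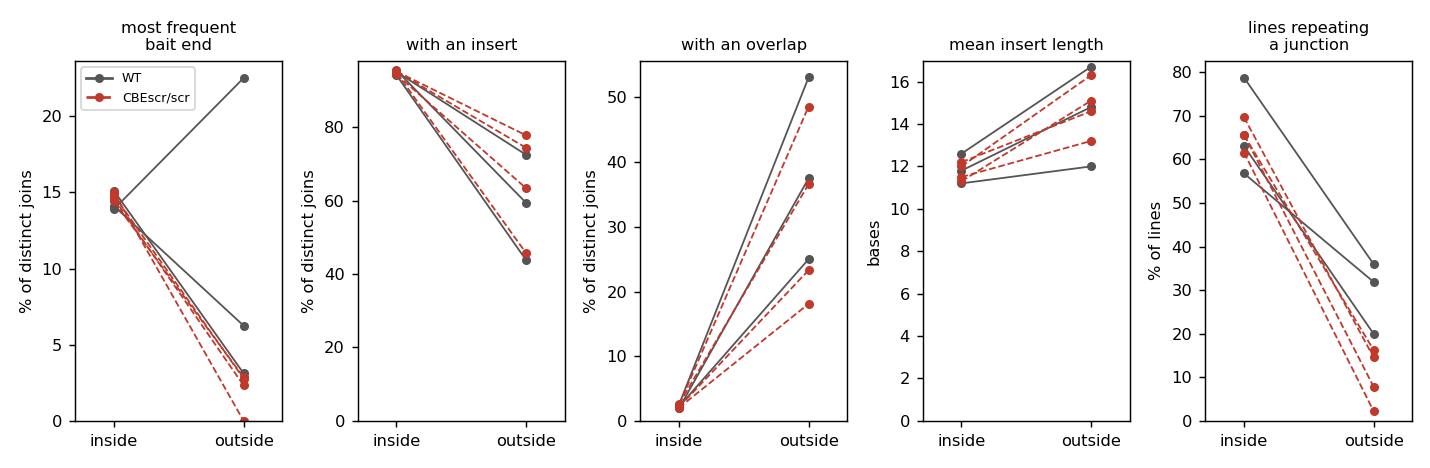
Each line joins the values of 1 library inside and outside Igh, for 3 WT (solid) and 4 VH81X-CBEscr/scr (CBEscr/scr, dashed) libraries. The panels show, from the left, the percent of distinct joins with the most frequent bait end, with an insert and with an overlap, the mean insert length in bases, and the percent of lines that repeat a junction, and WT replicate 3 is the only line that rises in the first panel, to 22.5%.

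The genotypes were compared by the share of all junctions that lay outside Igh. It was 0.123% ± 0.0218 in WT (SD, n = 3) and 0.235% ± 0.131 in VH81X-CBEscr/scr (SD, n = 4), a difference of 0.75 on the log2 scale. It did not pass the two-sided exact permutation test over 35 splits (adjusted p = 0.286 over 4 comparisons), whose smallest possible p was 0.0286. Without the 2 recurrent positions the share was 0.180% ± 0.0678 in VH81X-CBEscr/scr, and the log2 difference of 0.48 did not pass either (exact permutation adjusted p = 0.286). On other chromosomes without the recurrent positions the shares were 0.123% ± 0.0226 in WT (n = 3) and 0.171% ± 0.0593 in VH81X-CBEscr/scr (n = 4), with an exact permutation adjusted p of 0.286. On chromosome 12 outside Igh they were 0.000711% ± 0.00123 (n = 3) and 0.00958% ± 0.00974 (n = 4), from 1 and 14 lines, with an exact permutation adjusted p of 0.286.

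Leaving out low-complexity preys, a setting chosen after seeing the data, turned the direction of 2 of the 4 comparisons. Without these preys and the recurrent positions, the shares were 0.0838%, 0.113% and 0.0661% in WT, against 0.0681%, 0.0501%, 0.0543% and 0.0655% in VH81X-CBEscr/scr. On the log2 scale the groups then differed by -0.52, with VH81X-CBEscr/scr the lower, and did not pass the test (exact permutation adjusted p = 0.171). On other chromosomes without the recurrent positions the difference turned to -0.63. The log2 difference stayed positive for chromosome 12, at 1.13, and for all joins outside Igh, recurrent positions included, at 0.21. The value of 0.21 still counted the 82 lines of the recurrent positions, whose preys were also low in complexity. All 82 came from VH81X-CBEscr/scr replicates 3 and 4, and without them the difference was the -0.52 given above. VH81X-CBEscr/scr replicates 1 and 2, sequenced in another run, differed from WT by 0.00 on the log2 scale in the share of all joins outside Igh. The part of the sequencing run in these differences was not tested.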

How the data were processed

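The deposited files list 1 sequenced junction per line, and the authors gave no count column, so all counts are of lines made here. The aligner was Bowtie2 and the build mm9, per the submitters' processing notes, and filters and versions are not given in the sources used here. Per the file headers, lines marked as duplicates were kept, 71.8% to 84.8% of a library. The mapping quality mark was set on 0 lines. The members, classes and lists were chosen with earlier results of these data known. Positions were named if they had at least 5 lines in 1 library or were found in 2 libraries within 1 kb on 1 strand. Receptor and gene windows are whole megabases written from background knowledge of mm9. One gene window is not reported here. A genome of this build was not used here.

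Preys were aligned to 2146 preys of the V part, each at least 60 bases long, with BLAST+ 2.17.0 (identity at least 80% over at least 25 bases, starting within 5 bases of the prey and 15 of the match). Genotypes were compared on log2 of (count + 0.5) over all junctions, and joins outside with joins inside on differences within libraries, by exact permutation with a threshold of 0.05. The test functions were tested on simulated data. Alternatives changed the lines counted, the scale, the locus edges, the pseudocount, the libraries and the preys used. Python 3.11.15, pandas 2.3.3, NumPy 2.4.6 and matplotlib 3.10.9 were used.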

Additional observations from a re-analysis of the deposited data

How the results depend on the processing

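Of 60 alternative values of the 4 genotype comparisons, 55 kept their direction and stayed short of the threshold, 2 were 0.00 and 3 turned. The 2 values of 0.00 were those of all joins outside, with and without the recurrent positions, with VH81X-CBEscr/scr replicates 1 and 2 only. Without low-complexity preys, the log2 difference was -0.52 without the recurrent positions and -0.63 on other chromosomes. With VH81X-CBEscr/scr replicates 1 and 2 only, it was -0.01 on other chromosomes. The cause was not tested. Leaving out 1 library gave 0.48 to 1.01 for all joins outside, 0.29 to 0.65 without the recurrent positions, 1.35 to 2.71 on chromosome 12 and 0.24 to 0.58 on other chromosomes. No such fit can pass 0.05, since 3 against 3 libraries allows 0.1 and 2 against 4 allows 0.0667. The replicate block, which takes differences within replicate numbers 1 to 3, gave log2 differences of 0.48, 0.34, 1.35 and 0.31 (exact sign-flip p of 0.75, 0.75, 0.25 and 0.75, with 0.25 the smallest possible). Same-numbered libraries correlated at -0.26, -0.20 and -0.17 in their deviations over 31 bins of the locus, so the numbers gave no pairing.

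Of 64 alternative values of the 5 structure comparisons, 51 stayed past the threshold, 13 kept their direction but lost it, and 0 turned. Without low-complexity preys the bait end difference was -6.39 percentage points and the insert length difference 3.22 bases, both lost, while the insert difference moved from -32.5 to -51 points and the overlap difference from 32.3 to 52.2. With only 5 libraries, without VH81X-CBEscr/scr replicates 3 and 4, the differences were -7.58 points for the bait end, -37.9 for inserts, 37.8 for overlaps, 2.69 bases and -44.7 points for repeats, and the smallest possible p was 0.0625. Leaving out 1 library gave -11.8 to -7.87, -35 to -29.5, 29.3 to 35, 2.64 to 3.22 and -51.2 to -45.5 in the same order. Leaving out low-complexity preys, leaving out VH81X-CBEscr/scr replicates 3 and 4 together and widening the recurrent positions by 10 bases were chosen after seeing the data. The planned comparison of mapping quality, and the settings without lines so marked, were not run, since 0 lines bear the mark. The share of repeats has no value over all lines other than the one reported. The counts of 0 to 17 lines per library limit every statement on receptor loci.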
